A study of Mus musculus with 4 samples.

Results

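The genes described here encode the TGF-beta ligands Tgfb1 and Tgfb2, the latent TGF-beta binding proteins Ltbp1 and Ltbp4, the receptors Tgfbr1, Tgfbr2 and Tgfbr3, and the signal transducers Smad2 and Smad3. Open chromatin at these genes was mapped by ATAC-seq, an assay in which a transposase cuts accessible DNA and tags it for sequencing, in mouse lung endothelial cells isolated by flow cytometry. The tested libraries were 2 from Dnmt3a knockout (KO) mice, set against 2 from wild-type (WT) mice, and Dnmt3a encodes a de novo DNA methyltransferase. For strain, age, and the allele or Cre driver behind the knockout, nothing is given in the sources used here, and separate mice are not stated for replicates. Any p-value over libraries therefore measured only the spread between these libraries. Each library was a list of mm10 peak positions and widths without scores or counts of reads, and sequencing depth was unknown. Genotypes could be compared by the presence of a peak and by its width.

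Peaks from any of the 4 lists that overlapped by at least 1 bp were merged into 1 region. Regions that overlapped the span of one of the 9 genes, or the 10 kb on either side, were kept. This gave 167 of the 113056 merged regions, and each of the 9 genes had at least 1. Of the 167 regions, 151 overlapped the gene span itself.

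TGF-beta is secreted in a latent complex whose binding proteins, among them Ltbp1 and Ltbp4, attach it to the extracellular matrix until it is activated. Active ligand assembles the kinase receptors Tgfbr2 and Tgfbr1, and Tgfbr3 (betaglycan) is a co-receptor that presents ligand, Tgfb2 in particular. The activated receptors phosphorylate Smad2 and Smad3, which enter the nucleus with Smad4 and regulate transcription. In blood vessels the pathway is known for its part in vessel development, matrix deposition and endothelial-to-mesenchymal transition.

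The lists held 85091 and 100879 peaks in the KO libraries, against 101442 and 97627 in the WT libraries, on chromosomes 1 to 19, X and Y. KO replicate 1 stood apart by its short list and its median width of 467 bp, against 407 bp in KO replicate 2 and 431 and 443 bp in the WT libraries. KO replicate 2 stood apart at the single-copy Y genes, with peaks at 0 of 5, against 4 in KO replicate 1 and 3 and 4 in the WT libraries. The KO libraries thus differed from each other at these Y genes. Endothelial markers (Cdh5, Pecam1, Kdr and 7 others) had a peak near a gene end (1000 bp or closer) for 10 of 10 genes in every library. Leukocyte markers did so for 1 and 1 of 6 genes in KO and for 2 and 1 in WT, epithelial markers for 4 and 5 of 6 in KO and for 6 and 5 in WT, and fibroblast and mural markers for 6 and 6 of 7 in KO and for 6 and 5 in WT. The part of other cell types in the peaks below was not tested.

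RefSeq transcript starts on GRCm38.p6, the mm10 assembly, were at hand for 7 of the 9 genes, with 11 starts in all. Tgfbr3 and Smad2 were not matched in that table. A region called in all 4 lists covered 6 of the 11 starts, against 56.5% of the starts of all protein-coding genes. A region called in exactly 3 lists covered 1 (against 1.33%), and 4 were covered by no region (against 40.7%). The 250 bases before 6 of these starts are printed, as examples of starts covered in all 4 lists, in 3 lists and in none. They run 5′ to 3′ on the gene's strand, with CpG dinucleotides, the usual substrate of DNA methyltransferases, in capitals. The first start of Ltbp1 and those of Smad3 and Tgfb2 lay in regions of all 4 lists, the second start of Ltbp1 lay in a region of 3 lists, and the Ltbp4 starts lay in none.
Ltbp1 first start, chr17:75005279-75005528, plus strand: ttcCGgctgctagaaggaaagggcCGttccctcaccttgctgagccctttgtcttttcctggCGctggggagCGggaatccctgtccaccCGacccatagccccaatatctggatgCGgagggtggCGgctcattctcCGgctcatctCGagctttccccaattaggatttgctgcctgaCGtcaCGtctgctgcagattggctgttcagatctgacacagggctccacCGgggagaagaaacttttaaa
Ltbp1 second start, chr17:75178531-75178780, plus strand: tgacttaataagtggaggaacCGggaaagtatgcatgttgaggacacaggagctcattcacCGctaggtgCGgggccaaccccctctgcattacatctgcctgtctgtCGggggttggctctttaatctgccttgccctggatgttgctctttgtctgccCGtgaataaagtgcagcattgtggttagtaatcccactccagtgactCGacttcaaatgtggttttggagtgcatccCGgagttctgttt
Smad3 start, chr9:63757995-63758244, minus strand: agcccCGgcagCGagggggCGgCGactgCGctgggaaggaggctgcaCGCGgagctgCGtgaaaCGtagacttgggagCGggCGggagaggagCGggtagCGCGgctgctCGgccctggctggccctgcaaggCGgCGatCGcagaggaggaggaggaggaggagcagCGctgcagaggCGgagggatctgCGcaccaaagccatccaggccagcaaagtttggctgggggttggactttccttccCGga
Tgfb2 start, chr1:186705990-186706239, minus strand: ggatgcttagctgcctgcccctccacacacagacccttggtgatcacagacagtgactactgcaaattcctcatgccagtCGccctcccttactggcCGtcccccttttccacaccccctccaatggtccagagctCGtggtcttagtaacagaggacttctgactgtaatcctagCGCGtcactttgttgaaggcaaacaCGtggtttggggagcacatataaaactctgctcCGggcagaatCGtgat
Ltbp4 first start, chr7:27337613-27337862, minus strand: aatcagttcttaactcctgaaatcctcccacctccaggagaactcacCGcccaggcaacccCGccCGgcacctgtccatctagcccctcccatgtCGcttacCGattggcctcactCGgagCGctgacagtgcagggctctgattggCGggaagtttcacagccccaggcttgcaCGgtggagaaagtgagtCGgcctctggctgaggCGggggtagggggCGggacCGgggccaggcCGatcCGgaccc
Ltbp4 last start, chr7:27333649-27333898, minus strand: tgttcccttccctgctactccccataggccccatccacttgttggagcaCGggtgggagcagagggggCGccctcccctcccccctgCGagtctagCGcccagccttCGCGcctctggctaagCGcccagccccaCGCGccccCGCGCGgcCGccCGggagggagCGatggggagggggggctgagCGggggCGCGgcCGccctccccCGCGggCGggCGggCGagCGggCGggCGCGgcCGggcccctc
CpG number in these 250 bases did not order the starts by coverage. The first start of Ltbp1 had 12 CpGs, Smad3 had 22 and Tgfb2 had 8, all in regions of all 4 lists. The second start of Ltbp1 had 7, and the Ltbp4 starts, which no region covered, had 15 and 29. Among starts not printed, Tgfb1 had 21, the first start of Tgfbr1 29 and Tgfbr2 12, all in regions of all 4 lists. The second start of Tgfbr1, which no region covered, had 3. The median over 21255 promoters of protein-coding genes was 10.

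Short motifs were searched on both strands of the 250 bases before each of the 11 starts. CAGAC, letters bound by Smad proteins, was found before 5 of them (40.9% of all promoters searched), namely both Ltbp1 starts, Tgfb2, Tgfbr2 and the second start of Tgfbr1. GGGCGG, the GC box, was found before 6 (42.6% of all promoters), namely all Ltbp4 starts, Smad3, Tgfb1 and the first start of Tgfbr1. TGANTCA, the AP-1 motif, and CCGGAAG, an ETS motif, were found before 0 of the 11 (6.14% and 8.99% of all promoters). The starts of Ltbp4 at 27333663 and 27333648 lie so close that their windows share most bases, so the counts of 6 starts with GGGCGG and of 4 uncovered starts hold that promoter more than once. The starts with CAGAC and those with GGGCGG did not overlap.

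Across the 9 genes, most open regions were shared by both genotypes. Of the 167 regions, 107 (64.1%) were called in all 4 lists, against 66.7% of all merged regions. Regions with a peak in each KO list but in no WT list (the KO pattern) numbered 4 (2.4%), against 1.12% of all merged regions. They lay in Ltbp1 and Smad3, with 2 in each. Those of Ltbp1 were separate peaks in both KO lists but lay close together, 1 ending at 75014195 and the other beginning at 75014637. They may thus belong to 1 stretch. Regions with a peak in each WT list but in no KO list (the WT pattern) numbered 3 (1.8%), against 3.04% of all merged regions. They lay in Ltbp1, Tgfbr3 and Smad3, with 1 in each. The other regions were 13 called in 3 lists, 14 called in 1 KO and 1 WT list, and 26 called in a single list, against 11.1%, 4.72% and 13.4% of all merged regions. The patterned counts are small and carry no replicate error of their own.

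**Figure D1:**
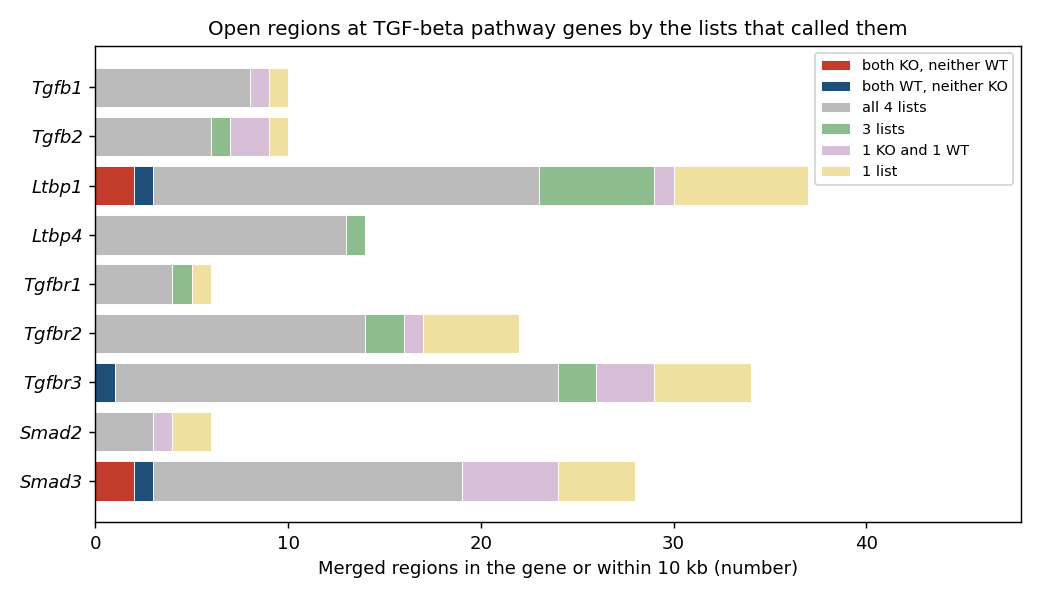
Number of merged regions (x axis) in each gene and the 10 kb on either side (y axis), coloured by the lists that called them. Regions called in all 4 lists, in grey, make up 107 of 167, and the KO pattern (red) appears at Ltbp1 and Smad3 alone, with 2 regions each.

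The ligand genes had no genotype-patterned region, where 1.12% of all merged regions had the KO pattern and 3.04% the WT pattern. At those shares so few regions could well hold none. Tgfb1 (gene identifier 21803, chromosome 7, 25687002 to 25705077), the ligand most widely produced, had 10 regions, and 8 were called in all 4 lists. The region at its start (25686740 to 25687540) was 770 and 789 bp wide in KO and 801 and 748 bp in WT. Its widest region, 1851 bp past the start (25688853 to 25689973), measured 1044 and 1039 bp in KO and 1051 and 1111 bp in WT. At the start the genotypes overlapped, and at the widest region both KO peaks were slightly narrower. One region called in all 4 lists, at 25680441 to 25681222, overlapped the neighbouring gene B9d2.

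Tgfb2 (gene identifier 21808, chromosome 1, 186622787 to 186709697) also had 10 regions, 6 of them in all 4 lists. Its start region (186705124 to 186706235) was 1030 and 1029 bp wide in KO, against 728 and 1109 bp in WT. The widths overlapped between genotypes, but the peaks differed in extent. The start itself, at 186705989, lay inside a peak in both KO libraries and in WT replicate 2, whereas the peak of WT replicate 1 ended at 186705851, short of it. KO replicate 2 listed 2 peaks here, of 705 and 324 bp, where the other lists had 1. The widest region of Tgfb2 was not at the start but 21291 bp into the gene (186683553 to 186684698), at 980 and 1044 bp in KO and 1048 and 1140 bp in WT. Both KO peaks were narrower there than both WT peaks.

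Ltbp1 (gene identifier 268977, chromosome 17, 75005480 to 75392512), which binds latent TGF-beta and anchors it in the matrix, is the longest of the genes and had the most regions, 37. It had 20 regions in all 4 lists, 2 of the KO pattern and 1 of the WT pattern. The region at its first start (75004821 to 75006673) was the widest over the 9 genes and nearly the same in every library, at 1819 and 1808 bp in KO and 1823 and 1808 bp in WT. The KO-pattern regions lay side by side downstream of this start. The nearer (75013864 to 75014195) began 8335 bp past the start and measured 330 and 269 bp in the KO libraries. The farther (75014637 to 75015379) began 9108 bp past the start and measured 589 and 702 bp. Its width stood at percentiles 65.2 and 85.1 of all peaks in KO replicates 1 and 2, against 26.1 and 16.3 for the nearer region. No WT peak lay within 7190 bp of the nearer or 7963 bp of the farther region. KO replicate 2 alone listed a further region 75017388 to 75017700, of 313 bp. Over the whole window, 4 regions (10.8%) were listed in KO replicate 2 alone and 3 (8.11%) in WT replicate 1 alone. Over all merged regions these shares were 4.56% and 4.34%.

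The second start of Ltbp1, at 75178781, begins a shorter transcript. Its region (75178247 to 75178881) was 473 and 590 bp wide in KO, against no peak in WT replicate 1 and 332 bp in WT replicate 2. Both KO peaks were wider than the only WT peak. In KO replicate 2 alone did the peak reach over the start, ending at 75178881, while those of KO replicate 1 and WT replicate 2 ended at 75178719 and 75178737, inside the printed 250 bases. This region was therefore of neither pattern. A region 75175010 to 75175925, upstream of the second start, ran the other way, with 630 and 626 bp in KO and 769 and 799 bp in WT. The WT-pattern region of Ltbp1 (75214910 to 75215231) lay 36129 bp past the second start and was narrow, at 235 and 266 bp in WT, with the nearest KO peak 1405 bp away.

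Ltbp4 (gene identifier 108075, chromosome 7, 27305140 to 27339720), a latent binding protein known for its role in lung elastic fibres, had the highest share of shared regions of the 9 genes. Of its 14 regions, 13 were called in all 4 lists and 0 were of either pattern (KO 1.12% and WT 3.04% of all merged regions). None of its 3 annotated starts lay in a region of any list. The nearest regions were 1301 bp from the first start, at 27335917 to 27336311, and 724 bp from the last, at 27332303 to 27332924. The region nearest the first start measured 390 and 339 bp in KO and 392 and 392 bp in WT. Within the gene, a region at 27311138 to 27311529 was 382 and 391 bp wide in KO and 271 and 255 bp in WT. Both KO peaks were wider than both WT peaks, and this was the region with the smallest p among the 9 genes in the width test given further on. Of the regions counted for Ltbp4, 2 overlapped the neighbouring gene Shkbp1.

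Among the receptors, Tgfbr1 (gene identifier 21812, chromosome 4, 47353222 to 47414926), the type I kinase, had 6 regions, 4 in all 4 lists. Its first start lay in a region (47352785 to 47353734) of 911 and 940 bp in KO and 931 and 950 bp in WT, which overlapped. Its second start, at 47386216, was 11141 bp from the nearest region. Tgfbr2 (gene identifier 21813, chromosome 9, 116087695 to 116175363), the type II kinase that binds ligand, had 22 regions, 14 in all 4 lists. Its start region (116174397 to 116175637) measured 1241 and 1059 bp in KO and 1182 and 1151 bp in WT, again overlapping. Neither kinase gene had a region of either pattern (KO 1.12% and WT 3.04% of all merged regions). Tgfbr2 did have 4 regions listed in KO replicate 2 alone (18.2%, against 4.56% of all merged regions). The widest of them (116104904 to 116105257) measured 354 bp. Tgfbr2 also had 1 region listed in KO replicate 1 alone (4.55%, against 1.92%).

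Tgfbr3 (gene identifier 21814, chromosome 5, 107106567 to 107289629), the co-receptor betaglycan, had 34 regions, 23 in all 4 lists. The region over its high-coordinate end (107288814 to 107289918) measured 1081 and 1035 bp in KO and 1054 and 1087 bp in WT. Its widest region lay inside the gene (107166592 to 107168237), with summed widths of 1627 and 1424 bp in KO and 1455 and 1593 bp in WT. The genotypes overlapped at both. Its WT-pattern region (107261248 to 107261556) was narrow, at 272 and 236 bp in WT, and no KO peak lay within 6904 bp of it. Regions listed in a single library numbered 1 and 2 in KO replicates 1 and 2, and 2 and 0 in WT replicates 1 and 2. Together they were 14.7% of the regions of Tgfbr3, against 13.4% of all merged regions.

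Smad2 (gene identifier 17126, chromosome 18, 76241090 to 76311748) had 6 regions, 3 in all 4 lists. None was of either pattern (KO 1.12% and WT 3.04% of all merged regions). The region over its low-coordinate end (76240780 to 76242043) was 1201 and 969 bp wide in KO and 1005 and 1020 bp in WT, which overlapped.

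Smad3 (gene identifier 17127, chromosome 9, 63646766 to 63757994), the transducer whose product binds DNA directly, had 28 regions, of which 16 were in all 4 lists, 2 of the KO pattern and 1 of the WT pattern. Its start region (63757423 to 63758637) measured 1142 and 839 bp in KO and 954 and 1160 bp in WT, which overlapped. The first KO-pattern region (63745857 to 63746776) began 11218 bp into the gene and measured 361 and 920 bp in the KO libraries, at percentiles 31.1 and 94.3 of peak width. No WT peak lay within 2537 bp of it. The second (63731512 to 63731833) was narrower, at 281 and 227 bp, lay 26161 bp into the gene and overlapped the non-coding gene Gm51710. The WT-pattern region (63677563 to 63677944) measured 215 and 269 bp in WT, and a KO peak lay 217 bp from it. KO replicate 2 alone also listed a region of 578 bp near the far end of Smad3 (63650793 to 63651370). Regions of Smad3 listed in a single library numbered 1 and 2 in KO replicates 1 and 2, and 1 and 0 in WT replicates 1 and 2. Together they were 14.3% of its regions, against 13.4% of all merged regions.

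The 4 regions of the KO pattern measured 281 to 589 bp in KO replicate 1 and 227 to 920 bp in KO replicate 2, and the 3 of the WT pattern 215 to 272 bp in WT replicate 1 and 236 to 269 bp in WT replicate 2. These ranges overlapped. Regions called in all 4 lists had medians of 534 and 493 bp in KO and 523 and 522 bp in WT. With every list cut to the length of the shortest (85091 peaks) by dropping narrow ones, the KO pattern counted 4 regions and the WT pattern 0. KO replicate 1 is that shortest list and lost no peaks, while the other lists lost narrow ones. These counts therefore cannot show which pattern holds better. Shares of all merged regions under that cut were not computed. In that version 3 of the 7 named patterned regions kept their pattern, namely both of Ltbp1 and the wider one of Smad3 from the KO pattern. The narrower KO-pattern region of Smad3 lost it, so the 4 include a region that was not of the KO pattern before. With the narrower 50% of each list removed, 1 kept it, the Ltbp1 region at 75014637 to 75015379.

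Patterned counts were also set beside windows of like size. Of 367 protein-coding gene windows with at least the 28 regions of Smad3, 18.0% had at least 2 KO-pattern regions and 67.3% at least 1 WT-pattern region. Of the 3 windows of that size here, Ltbp1, Tgfbr3 and Smad3, 2 had at least 2 KO-pattern regions and 3 had a WT-pattern region. Ltbp1 reached that number with regions that lay close together. The limit of 28 regions was taken from Smad3 after its values were seen. By the shares of its regions over the 15 possible call patterns, Ltbp1 was most like Atg7 (likeness 0.867 on a scale where 1 is identical), Fto (0.865) and Dym (0.861), among 212 genes with a similar number of regions, whose median likeness was 0.759.

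KO replicate 2 contributed more to these genes than the other lists. It called 146 of the 167 regions (87.4%), and KO replicate 1 called 127 (76.0%), against 133 (79.6%) in WT replicate 1 and 129 (77.2%) in WT replicate 2. Over all merged regions the shares were 85.2% in KO replicate 2 and 74.3% in KO replicate 1, against 87.1% and 84.4% in WT replicates 1 and 2. Regions listed in KO replicate 2 alone numbered 14 (8.38%, against 4.56% of all merged regions), and those listed in KO replicate 1 alone 5 (2.99%, against 1.92%). Regions listed in WT replicate 1 alone numbered 6 (3.59%, against 4.34%) and in WT replicate 2 alone 1 (0.599%, against 2.55%). The KO-pattern count depended on the lists asked for. Without KO replicate 1, 18 regions were in the other KO list and in no WT list (5.68% of all merged regions met that rule), and without KO replicate 2, 9 were (3.04%). Without WT replicate 1 or WT replicate 2 it was 6 and 7 (2.05% and 1.84%). The WT pattern counted 6 and 8 without KO replicate 1 or 2 (4.86% and 10.6%), and 4 and 9 without WT replicate 1 or 2 (5.59% and 7.38%).

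The length covered by peaks over the 9 windows was 69534 and 71758 bp in the KO libraries and 69529 and 69231 bp in the WT libraries. Both KO values were above both WT values, but KO replicate 1 by only a few bases. The mean was 70646 ± 1573 bp in KO and 69380 ± 211 bp in WT (SD, n = 2 each). As a share of all bases under peaks in the library, the windows held 0.149% and 0.150% in KO and 0.136% and 0.137% in WT, with 46.63 and 47.78 Mb under peaks in all in KO and 51.11 and 50.47 Mb in WT. The direction turned with 50 kb on either side of each gene (a difference of -1364.5 bp, KO minus WT) and with the narrower 50% of each list removed (-876 bp). There were 128 and 151 peaks in the KO windows, against 135 and 131 in the WT windows, which overlapped, and without KO replicate 2 the difference in mean peak number, KO minus WT, was -5, against 6.5 with all libraries.

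Gene by gene, covered length did not overlap between genotypes at Smad2 alone, with 2228 and 2330 bp in KO and 1877 and 2147 bp in WT (exact permutation p = 0.333, two-sided, the smallest this design allows). Both KO libraries were thus higher at 1 of 9 genes, against 5.67% of 17673 protein-coding gene windows, and both were lower at 0 of 9, against 34.7%. Smad3 covered 9651 and 11721 bp in KO and 9969 and 10230 bp in WT, so that the KO libraries lay on either side of the WT libraries. Ltbp1 covered 15284 and 15861 bp in KO and 15944 and 14605 bp in WT. Tgfb2 covered 4934 and 3885 bp in KO and 4395 and 4633 bp in WT, with the KO values again outside the WT ones.

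**Figure D2:**
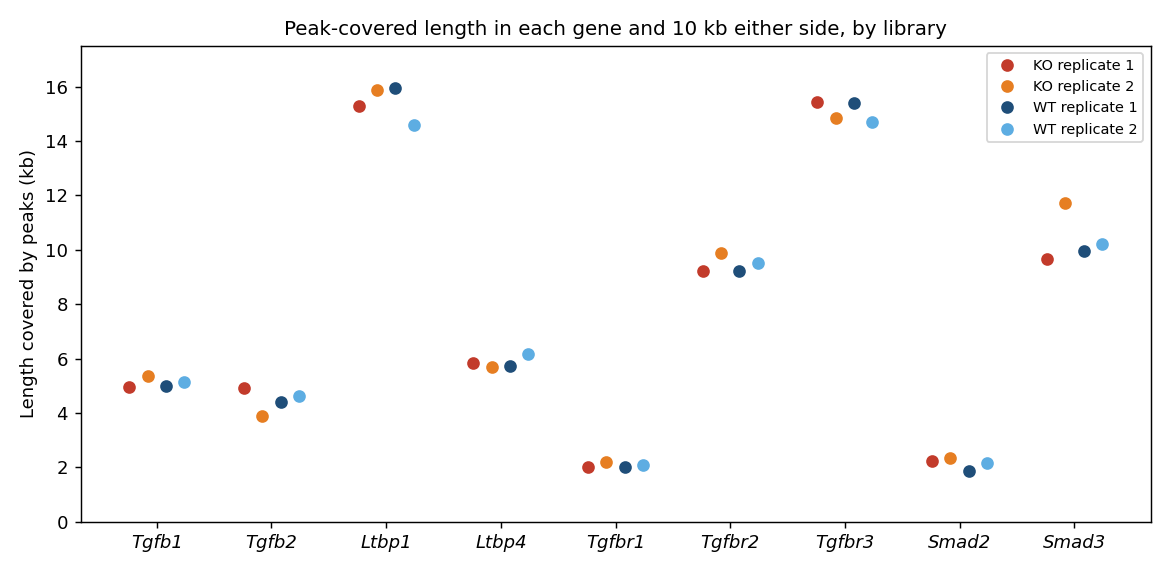
Length covered by peaks in kb (y axis) in each gene and the 10 kb on either side (x axis), 1 point per library, KO left of WT. Points of the genotypes overlap at 8 of the 9 genes, and at Smad2 both KO points lie above both WT points.

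At the regions called in all 4 lists, width was the one quantity that could be compared by degree. It was tested with limma on quantile-normalised log2 width over all 75395 such regions. After Benjamini-Hochberg adjustment 0 of the 107 regions differed (0% of all regions, smallest limma adjusted p = 0.537), and 8 had an unadjusted p under 0.05 (7.48%, against 6.03% of all regions). Simulated widths took the means of these 75395 regions and their residual SDs, shuffled across regions, so recovery on the real widths may differ. On them the test recovered 0 of 100 shifts of 1 log2 unit and 24 of 100 shifts of 2. Differences of this size could thus have been missed. The median log2 difference, KO minus WT, was 0.04 over the 107 regions and 0.01 over all regions. Without quantile normalisation both medians were negative, at -0.02 over the 107 regions and -0.05 over all regions. By the widths as listed, without normalisation, both KO peaks were wider than both WT peaks at 12 regions (11.2%, against 7.37% of all). They were narrower at 28 (26.2%, against 27.1% of all). The direction by listed widths and that of the normalised difference can disagree at a region.

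The 5 regions with the smallest p went both ways. Their widths in bp are given as listed and their log2 differences after quantile normalisation, so these need not match. The Ltbp4 region at 27311138 to 27311529, described above, was wider in KO by 0.69 ± 0.08 log2 units (SE, limma adjusted p = 0.537). In Smad3, a region at 63741737 to 63742138 measured 220 and 297 bp in KO and 402 and 377 bp in WT, and was narrower in KO (log2 difference -0.46 ± 0.12, SE, limma adjusted p = 0.698). It lies between the KO-pattern regions of that gene. Near Tgfb1, a region at 25710056 to 25710459 measured 352 and 352 bp in KO and 321 and 322 bp in WT (0.26 ± 0.08, SE, limma adjusted p = 0.776). The Ltbp1 region upstream of the second start had a log2 difference of -0.29 ± 0.09 (SE, limma adjusted p = 0.777). In Tgfbr1, a region at 47399888 to 47400240 measured 334 and 310 bp in KO and 232 and 282 bp in WT (0.46 ± 0.15, SE, limma adjusted p = 0.779). In all 5 the genotypes did not overlap in listed width, which picking by the smallest p favours, and none passed the adjusted threshold. Of all regions called in all 4 lists, both KO peaks were wider at 7.37% and narrower at 27.1%.

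**Figure D3:**
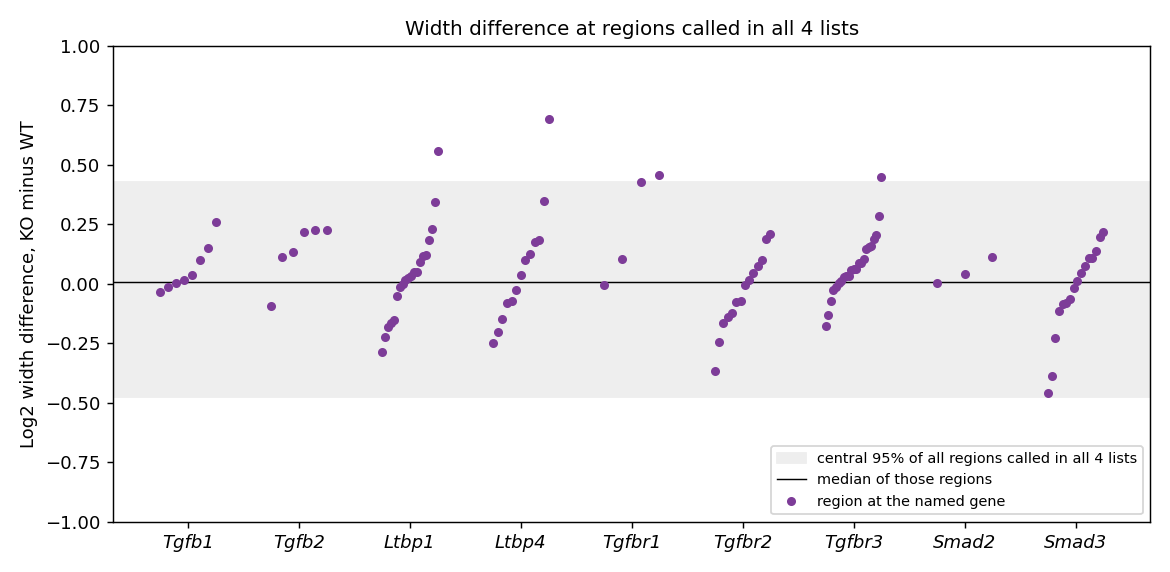
Log2 width difference, KO minus WT (y axis), for each region called in all 4 lists at the 9 genes (x axis, 107 points), with the median (line) and the central 95% (grey band, -0.48 to 0.43) of all 75395 such regions. Most points lie inside the band, and the highest is the Ltbp4 region at 0.69.

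By gene, the median log2 width difference was highest at Tgfbr1 (0.27, 4 regions) and Tgfb2 (0.18, 6 regions) and lowest at Tgfbr2 (-0.04, 14 regions). Ltbp1 had 0.03 over 20 regions, Tgfbr3 0.06 over 23, and Smad3 -0.0043 over 16. These medians depended on the normalisation. Without it they were 0.14 at Tgfbr1, 0.09 at Tgfb2 and 0.0017 at Tgfbr3, and they turned negative at Tgfb1 (-0.02, against 0.03 with it), Ltbp1 (-0.0016), Ltbp4 (-0.04, against 0.04) and Smad2 (-0.05, against 0.04). At the starts, widths of the genotypes overlapped at every region called in all 4 lists.

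**Figure D4:**
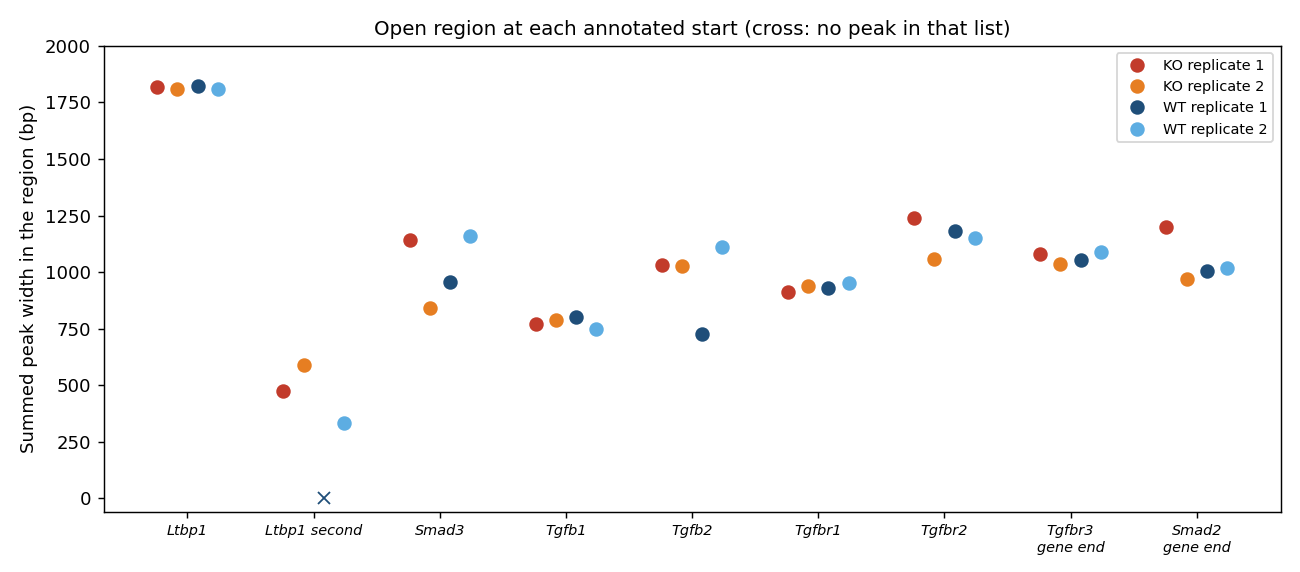
Summed peak width in bp (y axis) of the region at each annotated start that a region covered, or at a gene end for Tgfbr3 and Smad2 (x axis), 1 point per library, KO left of WT. The first Ltbp1 start measures 1808 to 1823 bp in every library, and at the second Ltbp1 start the KO points, 473 and 590 bp, lie above the WT point of 332 bp, with no peak in WT replicate 1 (cross).

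Other genes of the pathway were read from a list of 39 genes of ligands, activators, receptors, inhibitors and targets. Their windows held 362 regions, of which 243 (67.1%) were called in all 4 lists, 2 (0.552%) had the KO pattern and 5 (1.38%) the WT pattern, against 66.7%, 1.12% and 3.04% of all merged regions. Both KO-pattern regions lay in Zeb2, a transcriptional repressor that TGF-beta induces in many cells, at 230 and 295 bp (chromosome 2, 45001712 to 45002006) and at 214 and 302 bp (45033974 to 45034276) in the KO libraries. The WT-pattern regions lay in Inhba, an activin subunit gene (327 and 228 bp in WT), Ltbp2, a relative of the latent binding proteins (392 and 281 bp), Fbn1, the fibrillin 1 gene (201 and 273 bp), Thbs1, whose product activates latent TGF-beta (288 and 220 bp), and Smurf2, a ubiquitin ligase that targets the receptors (203 and 216 bp). Covered length was higher in both KO libraries at 3 of the 39 genes, namely Ltbp3, Fn1 and Zeb2, and lower in both at 13, against 5.67% and 34.7% of all protein-coding gene windows.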

How the data were processed

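Peak lists of 4 ATAC-seq libraries were analysed. Tools named in the submitters' processing notes are cutadapt, Bowtie2 and Picard, and the build is mm10. The peak caller, its threshold, read filters and any transposase shift are not given in the sources used here. The authors deposited chromosome, start, end and width in base pairs (no score), per the file headers. How many narrow peaks a list holds can follow its depth, so a missing peak is not proof of closed chromatin. Peaks on other sequences (92 and 134 in KO, 134 and 124 in WT) were left out. Gene spans came from RefSeq (GRCm38.p6), without exons, so exonic or intronic position was not used. A sequence for peaks other than promoters was not used here.

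The genes, lists and rules were chosen with earlier results of these data known, so no count here is independent support. Named were the 9 genes, each patterned region, regions at starts, the widest region of each gene and the 5 smallest width p-values; a few regions outside this rule were named after their values were seen. Likeness is the sum, over call patterns, of the smaller of the shares of each pair of genes. Widths of a library in a region were summed and tested with limma 3.58.1 (R 4.3.3, eBayes, Benjamini-Hochberg). Python 3.11.15, numpy 2.4.6, pandas 2.3.3 and scipy 1.17.1 were used. The width test was tested on simulated data.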

Additional observations from a re-analysis of the deposited data

How the results depend on the processing

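Regions called in all 4 lists (107) numbered 162 with 50 kb on either side and 58 with the narrower 50% of each list removed, and 109 to 113 without each library. The KO pattern (4 regions) numbered 2 with that removal, and 6 to 18 without each library. The WT pattern (3 regions) numbered 8 with 50 kb, 0 with lists of equal length, 1 with the narrower 50% removed, and 4 to 9 without each library. Shares of all merged regions were not computed for lists of equal length or with narrow peaks removed. The number of all regions in the 50 kb windows is not given. Those counts therefore cannot be set against other genes. The cut to equal length removed no peaks from KO replicate 1. A run without a library asks for 1 list fewer, so these counts can rise by the rule itself. All 7 named patterned regions kept their pattern in each such run, but the rule with 1 list fewer could not have dropped them. These runs therefore do not test the named regions. The difference in covered length (1266 bp, KO minus WT) was -1364.5 bp with 50 kb, 2570.5 bp with equal lengths, -876 bp with the narrower 50% removed and 6387 bp scaled to the mean library total, and 154 to 2378 bp without each library. Leaving out each library in turn gave peak number differences of -5 to 18. The cause of these changes was not tested.

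Counting a list only where its peaks covered at least 50% of a region left 3 KO-pattern and 3 WT-pattern regions. No share of all merged regions was computed under that rule. This version was chosen after seeing the data, since the one planned equalled the 1 bp rule by its construction. With a 500 bp gap for absence, 6 of the 7 named patterned regions kept their pattern. Width calls numbered 0 in every alternative run with all libraries, at these genes and over all regions tested alike. They are thus not particular to these genes. Without quantile normalisation, 5 of the 107 regions had an unadjusted limma p under 0.05, against 6.78% of all regions. With 1 library left out, the median log2 width difference over the 107 regions was 0.02 (without WT replicate 2) to 0.05 (without KO replicate 2). The labels link replicates of the genotypes by a number only. Deviations of KO replicate 1 and WT replicate 1 from their group means correlated at r = -0.0449 across 75395 regions, which are not independent replicates. These were normalised widths of 2 libraries per genotype, so r cannot show whether replicates of the same number shared a batch. With the replicate block, limma gave 0 calls and 6 regions at an unadjusted p under 0.05 (5.83% of all regions had one). The differences of 1266 bp and 6.5 peaks equal those with the block by construction, so the block does not test them. Read depth was unknown.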
